A study of Mus musculus with 22 samples.

Results

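Chemokines are small secreted proteins that direct the movement of leukocytes, and the 54 genes described here are the chemokine ligands and receptors measured in the livers of mice with and without Cyp2c70. They were taken by symbol alone, as every gene whose single annotated symbol begins with Ccl, Cxcl, Cx3cl or Xcl (34 ligands), Ccr, Cxcr or Xcr (16 signalling receptors) or Ackr (4 atypical receptors) followed by a digit, with the exception of 1 receptor gene. They are 54 of 24011 genes with a symbol of their own. The symbol rule used no measured value, but the members were chosen with earlier results of these data known.

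Total liver RNA of 22 mice was hybridised to Affymetrix MoGene 2.0 ST arrays, 1 array a mouse. All mice were C57BL/6J females aged 12 weeks. Wild-type mice ate chow (WT_chow, n = 5) or chow with ursodeoxycholic acid, UDCA (WT_UDCA, n = 6). Mice with a Cyp2c70 knockout ate chow (KO_chow, n = 5) or the UDCA diet (KO_UDCA, n = 6). UDCA, a hydrophilic bile acid that is also a drug for cholestatic liver disease, was mixed in at 0.1% of the diet when mice were 5 weeks old and fed for 7 weeks. Cyp2c70 is the mouse enzyme that makes muricholic acids, so its loss shifts bile acids towards hydrophobic species. The labels do not say how the knockout was made or which cells carry it. The comparisons ask what loss of Cyp2c70 goes with on chow, and what UDCA feeding goes with in each genotype.

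A chemokine binds a receptor coupled to a G protein on the leukocyte that it attracts, and most inflammatory chemokines share receptors. Ligands of the CC family mainly attract monocytes, eosinophils and T cells, while CXC ligands of the Cxcr2 receptor attract neutrophils and the interferon-induced CXC ligands attract activated T cells through Cxcr3. Atypical receptors bind chemokines without G protein signalling and can remove them. In liver, hepatocytes, cholangiocytes, macrophages, stellate cells and endothelial cells can all make chemokines, so a whole-tissue level does not say which cell made the transcript.

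Levels are log2 of the deposited intensity, and each array had its median between 4.84 and 4.96 on this scale. Of the 54 genes, 16 lay above the array median in all 22 arrays, 17 in some and 21 in none, and the table holds no detection call. Cyp2c70 itself was at 11.49 ± 0.14 (SD, n = 5) in WT_chow and 10.65 ± 0.12 in KO_chow, with no overlap, and at 11.43 ± 0.14 in WT_UDCA and 10.51 ± 0.17 (n = 6) in KO_UDCA. None of 7 hepatocyte markers was called by limma on chow (0 at an unadjusted p below 0.05), and their summed intensity lay between 31370 and 34230 in every array. In KO_chow, mice 2 and 5 stood apart: the summed intensity of 8 markers of monocyte-derived macrophages was 3910 and 2794 in them and 1030, 1509 and 1059 in mice 1, 3 and 4, against 447.4 to 533.4 in WT_chow. Calls that were lost without mice 2 and 5 together are also given. Such a fit has fewer KO_chow arrays, so a call can be lost with a similar log2 change.

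A group of chemokine and receptor transcripts rose in the knockout on chow. In KO_chow against WT_chow, 16 of the 54 genes rose (29.6%) and 2 fell (3.7%), while 7.69% of all 24011 genes rose and 6.03% fell. Without KO_chow mice 2 and 5 the counts were 10 and 1, in a fit with fewer arrays. The shares over all genes are those of the main fit, so these smaller counts have no background of their own. The calls are limma tests with Benjamini-Hochberg adjustment over all genes, made at an adjusted p below 0.05. The median log2 change of the 54 was 0.07, against -0.04 over all genes. By kind, 12 of 34 ligands rose and 1 fell, 4 of 16 signalling receptors rose and none fell, and of 4 atypical receptors 1 fell. Levels of the 2 groups did not overlap for 12 of the 54 genes that were higher in KO_chow and 2 that were lower, where the shares over all genes were 5.45% and 3.98%. Whole liver was measured, so more cells that carry a transcript and more transcript per cell cannot be told apart.

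**Figure D1:**
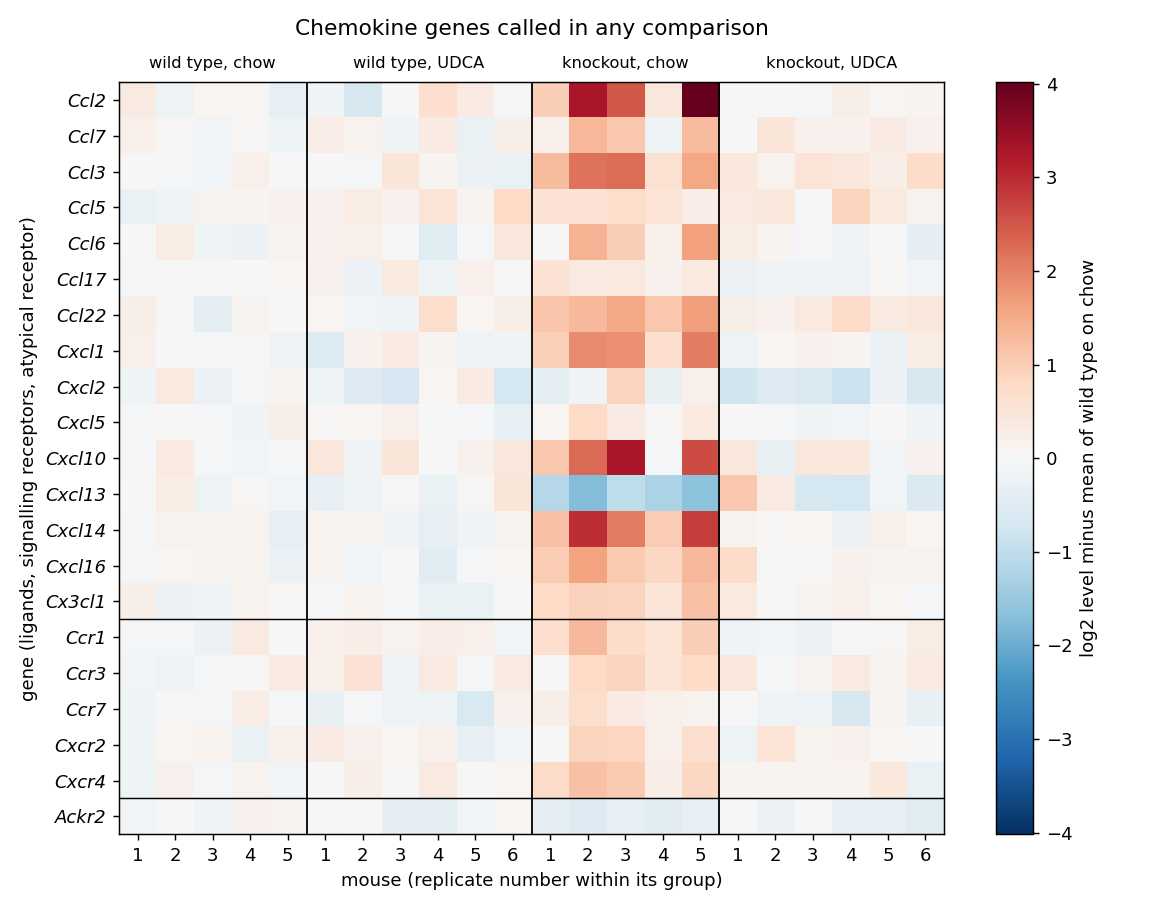
Difference of the log2 level of each array from the WT_chow mean, for the 21 chemokine and receptor genes called in any comparison (rows) in all 22 arrays (columns, by group). In the KO_chow columns 16 genes stand higher than in WT_chow by the test and Cxcl13 and Ackr2 stand lower, with mice 1 and 4 paler than mice 2, 3 and 5.

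Among the 9 CC ligands that attract monocytes and macrophages, 5 rose in KO_chow and none fell, with a median log2 change of 0.53. Ccl2, the main ligand for the recruitment of monocytes, was at 4.75, 4.19, 4.47, 4.49 and 4.06 in the WT_chow mice and at 5.37, 7.66, 6.90, 4.85 and 8.41 in the KO_chow mice, in the order of their replicate numbers. All 5 knockout mice lay above all wild-type mice, but mice 1 and 4 were close to them and mice 2, 3 and 5 far above. Ccl2 rose 4.74-fold by limma (log2 2.25, SE 0.43, adjusted p = 0.00101). In UDCA-fed mice Ccl2 ran from 3.75 to 5.07 (median 4.36) in the wild type and from 4.32 to 4.63 (median 4.42) in the knockout, so that every UDCA-fed knockout mouse was below every KO_chow mouse (log2 -2.19, SE 0.41, adjusted p = 0.00112).

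Ccl3, or MIP-1 alpha, a ligand of Ccr1 made largely by macrophages, was at 4.21, 4.19, 4.12, 4.44 and 4.20 in WT_chow and 5.51, 6.41, 6.47, 4.85 and 5.79 in KO_chow. No knockout mouse overlapped the wild type, and mouse 4 was again the lowest of the 5. Ccl3 rose 2.98-fold (log2 1.58, SE 0.21, adjusted p = 2.18e-05). In KO_UDCA it ran from 4.37 to 4.95 (median 4.65), lower than in KO_chow by the test (log2 -1.16, adjusted p = 0.000631), although the highest UDCA-fed mouse passed KO_chow mouse 4.

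Ccl5, or RANTES, made by T cells and NK cells among others, was at 5.44, 5.52, 5.84, 5.82 and 5.87 in WT_chow and 6.29, 6.28, 6.39, 6.24 and 5.97 in KO_chow. The 5 knockout mice lay close together and above the wild type, with mouse 5, high for most other chemokines, the lowest here. The rise was 1.45-fold (log2 0.53, SE 0.15, adjusted p = 0.0175), and without WT_chow mouse 1 it was no longer called (log2 0.47, adjusted p = 0.055). UDCA-fed knockout mice ran from 5.72 to 6.59 (median 6.07) and were not called lower than KO_chow (log2 -0.16, adjusted p = 0.545). Ccl5 in WT_UDCA ran from 5.80 to 6.51 (median 5.93), overlapping both knockout groups.

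Ccl6, a mouse ligand of Ccr1, was at 5.75, 6.06, 5.61, 5.55 and 5.93 in WT_chow and 5.79, 7.18, 6.76, 5.98 and 7.43 in KO_chow. Ccl7, or MCP-3, which like Ccl2 attracts monocytes, was at 5.66, 5.50, 5.37, 5.51 and 5.28 in WT_chow and 5.68, 6.80, 6.53, 5.27 and 6.75 in KO_chow. For both genes KO_chow mice 2, 3 and 5 lay above every wild-type mouse while mice 1 and 4 lay within or near the wild-type range. Ccl6 rose 1.8-fold (log2 0.85, SE 0.24, adjusted p = 0.0174) and Ccl7 1.67-fold (log2 0.74, SE 0.21, adjusted p = 0.0204). Neither call was stable: Ccl6 was not called without KO_chow mouse 2 (adjusted p = 0.0682) or mouse 5 (0.0699), and Ccl7 without KO_chow mouse 2 (0.082), 3 (0.0584) or 5 (0.0775) or WT_chow mouse 5 (0.051). Without KO_chow mice 2 and 5 together, the adjusted p was 0.343 for Ccl6 and 0.371 for Ccl7. In KO_UDCA, Ccl6 ran from 5.43 to 6.08 (median 5.75) and was lower than in KO_chow (log2 -0.87, adjusted p = 0.0138), a call lost without KO_chow mouse 2 (0.0585) or 5 (0.062), while Ccl7, from 5.46 to 5.96 (median 5.65), was not called (log2 -0.52, adjusted p = 0.108).

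The other 4 members of this group were not called on chow. Ccl9, a further Ccr1 ligand, ran from 9.59 to 9.81 in WT_chow and from 9.85 to 9.97 in KO_chow, so the groups did not overlap, yet the log2 change was 0.26 (SE 0.14, adjusted p = 0.243). Ccl4, a neighbour of Ccl3 in the genome, had a mean of 4.93 in WT_chow and 4.88 in KO_chow. Ccl8 and Ccl12 lay below the array median, with log2 changes of -0.26 and 0.28.

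Of 9 CC ligands that attract eosinophils and T cells, Ccl17 and Ccl22 rose and none fell. Both are ligands of Ccr4 and are typical products of dendritic cells and macrophages. Ccl22 was at 4.17, 3.99, 3.53, 4.05 and 3.94 in WT_chow and 5.05, 5.23, 5.49, 5.02 and 5.60 in KO_chow. It was higher in each knockout mouse by a similar amount, and had no low values in mice 1 and 4 of the kind seen for Ccl2. Ccl22 rose 2.54-fold (log2 1.34, SE 0.16, adjusted p = 3.03e-06), and in KO_UDCA, from 4.11 to 4.70 (median 4.31), it was lower than in every KO_chow mouse (log2 -0.95, adjusted p = 0.000197).

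Ccl17 was dimmer, below the median of every array, at 3.91, 4.01, 3.99, 4.02 and 4.08 in WT_chow and 4.60, 4.37, 4.38, 4.18 and 4.38 in KO_chow. The groups did not overlap and the gene rose by the test (log2 0.38, SE 0.10, adjusted p = 0.0163). Without KO_chow mice 2 and 5 together the log2 change was still 0.38, but it was not called with fewer arrays (adjusted p = 0.0904). UDCA-fed knockout mice, from 3.77 to 4.04 (median 3.84), all lay below KO_chow (log2 -0.52, adjusted p = 0.00147). Ccl20, the ligand of Ccr6, had a mean of 4.95 in WT_chow and 4.54 in KO_chow, and its difference just missed the threshold (log2 -0.41, adjusted p = 0.0531). Ccl20 was called lower with median centring (adjusted p = 0.0303), quantile normalization (0.041), the filter on dim genes (0.0295), a fit to the compared groups only (0.0301), a trended robust prior (0.0486), and without KO_chow mouse 5 (0.0494) or WT_chow mouse 5 (0.0379).

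Of the 3 ligands with a standing role in lymphoid tissue, Cxcl13 fell. Cxcl13 attracts B cells through Cxcr5 and organises lymphoid follicles. It was at 6.80, 7.13, 6.61, 6.88 and 6.70 in WT_chow and 5.69, 5.09, 5.80, 5.56 and 5.16 in KO_chow, with every knockout mouse below every wild-type mouse. The level was 2.57-fold lower (log2 -1.36, SE 0.25, adjusted p = 0.000801). In KO_UDCA it was at 7.91, 7.16, 6.12, 6.12, 6.71 and 6.25, all above KO_chow and some above the wild type, 2.38-fold higher than KO_chow (log2 1.25, adjusted p = 0.00151). Without KO_chow mice 2 and 5 together the UDCA difference was no longer called (log2 1.03, adjusted p = 0.053). Cxcl12, which holds stem cells and lymphocytes through Cxcr4, had a mean of 9.36 in WT_chow and 9.05 in KO_chow (log2 -0.30, adjusted p = 0.187), and Ccl19, a ligand of Ccr7, was below the median of most arrays.

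Among 5 CXC ligands that attract neutrophils, only Cxcl1 was called on chow. Cxcl1, or KC, a main ligand of Cxcr2 that hepatocytes and other cells release on inflammatory signals, was at 5.59, 5.38, 5.33, 5.43 and 5.18 in WT_chow and 6.33, 7.27, 7.23, 6.06 and 7.44 in KO_chow. The lowest knockout mouse, mouse 4, was still above the highest wild-type mouse. Cxcl1 rose 2.8-fold (log2 1.49, SE 0.21, adjusted p = 3.91e-05), and in KO_UDCA it ran from 5.15 to 5.68 (median 5.49), within the range of UDCA-fed wild-type mice (4.84 to 5.70), with a log2 change from KO_chow of -1.45 (SE 0.20, adjusted p = 4.95e-05).

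Cxcl2, its neighbour on chromosome 5 and also a Cxcr2 ligand, was at 3.96, 4.52, 3.88, 4.04 and 4.26 in WT_chow and 3.73, 4.00, 5.02, 3.83 and 4.33 in KO_chow. The groups overlapped, with KO_chow mouse 3 the highest of all, and the log2 change was 0.05 (adjusted p = 0.92). In KO_UDCA Cxcl2 ran from 3.27 to 3.90 (median 3.52) and was lower than in KO_chow (log2 -0.66, adjusted p = 0.0383). That call was lost without any 1 of KO_UDCA mice 1, 2, 3, 4 or 6 or KO_chow mice 2, 3 or 5, with adjusted p from 0.0541 to 0.133. Cxcl5, a dim ligand of the same receptor, was at 4.06, 4.78, 4.29, 4.03 and 4.37 in KO_chow and from 3.81 to 4.20 (median 3.93) in WT_chow (log2 0.34, adjusted p = 0.0591), a difference that was called with quantile normalization (adjusted p = 0.0456) and without KO_chow mouse 1 (0.0273), KO_chow mouse 4 (0.0213) or WT_chow mouse 5 (0.0381). All UDCA-fed knockout mice, from 3.80 to 3.99 (median 3.87), lay below KO_chow (log2 -0.42, adjusted p = 0.0165), which was not called without KO_chow mouse 2 (log2 -0.30, adjusted p = 0.0654).

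Of the 3 interferon-induced ligands of Cxcr3, Cxcl10 rose. It was at 5.26, 5.71, 5.27, 5.24 and 5.27 in WT_chow and 6.42, 7.63, 8.63, 5.26 and 7.97 in KO_chow. Mouse 4 had a wild-type level and the other 4 knockout mice lay well above, mouse 3 highest, so this gene varied more between knockout mice than most. The rise was 3.56-fold (log2 1.83, SE 0.38, adjusted p = 0.00216), and without mice 2 and 5 together it was not called (log2 1.42, adjusted p = 0.0621). In KO_UDCA Cxcl10 ran from 5.04 to 5.82 (median 5.65), lower than in KO_chow (log2 -1.65, adjusted p = 0.00467), again not called without mice 2 and 5 (log2 -1.23, adjusted p = 0.125).

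Cxcl9 and Cxcl11 did not pass the test. Cxcl9 had a mean of 7.66 ± 0.29 in WT_chow, 8.18 ± 0.31 in KO_chow, 8.19 ± 0.53 in WT_UDCA and 8.19 ± 0.31 in KO_UDCA (SD). The WT_chow mean was the lowest and the other three lay close together, with adjusted p = 0.127 on chow and 0.841 for UDCA in the wild type. Cxcl11 had a log2 change of -0.07 on chow (adjusted p = 0.871).

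The promoters of Cxcl1, Cxcl2 and Cxcl10 are shown because these chromosome 5 ligands are known to be induced by inflammatory signals, and Cxcl1 and Cxcl10 rose on chow while Cxcl2 was not called. The lines give the 250 bases before the annotated start of each gene, 5′ to 3′ on the gene's own strand, from RefSeq with assembly GRCm38.p6, and capitals mark matches to the NF-kappaB consensus on either strand. They lie at chr5:90890995-90891244 on the plus strand (Cxcl1), chr5:90903649-90903898 on the plus strand (Cxcl2) and chr5:92348890-92349139 on the minus strand (Cxcl10).
Cxcl1: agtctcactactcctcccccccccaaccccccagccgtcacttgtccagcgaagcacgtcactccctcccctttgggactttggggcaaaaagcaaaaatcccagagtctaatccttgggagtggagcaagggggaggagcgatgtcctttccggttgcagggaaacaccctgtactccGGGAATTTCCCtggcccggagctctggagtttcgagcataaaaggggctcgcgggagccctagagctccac
Cxcl2: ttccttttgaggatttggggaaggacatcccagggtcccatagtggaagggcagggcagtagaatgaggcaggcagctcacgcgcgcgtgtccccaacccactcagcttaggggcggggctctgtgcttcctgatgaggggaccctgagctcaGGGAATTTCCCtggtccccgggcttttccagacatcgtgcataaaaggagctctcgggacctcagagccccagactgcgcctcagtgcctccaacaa
Cxcl10: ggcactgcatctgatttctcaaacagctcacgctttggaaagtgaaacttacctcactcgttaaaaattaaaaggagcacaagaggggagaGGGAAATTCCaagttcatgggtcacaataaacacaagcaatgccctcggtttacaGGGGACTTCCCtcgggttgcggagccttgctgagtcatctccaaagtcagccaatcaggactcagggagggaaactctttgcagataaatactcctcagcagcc

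Cxcl1 held overlapping matches at 71 to 62 and 70 to 61 bases before the start, and Cxcl2 at 97 to 88 and 96 to 87. Cxcl10 held 1 match at 159 to 150 and an overlapping pair at 104 to 95 and 103 to 94 bases. Cxcl2, not called on chow, lay above the array median in only 1 array, and the part of the motif in any of these levels was not tested. In the window of 250 bases before to 50 after the start, on both strands, the consensus was present in 4 of the 12 risen genes with a promoter in the table (Cxcl1, Cxcl10, Ccr1 and Ccr3), in 7 of 28 other members and in 9.55% of 27025 genes. The AP-1 motif TGANTCA was in 2 of the 12, 5 of the 28 and 8.97% of all. The core of the ISRE, the element of interferon-induced genes, was in 2 of the 12 (Cxcl10 and Cxcl14), 1 of the 28 and 3.99% of all. A match is a description of the sequence and shows no binding.

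Of the 5 remaining ligands, Cxcl14, Cxcl16 and Cx3cl1 rose. Cxcl14, which attracts monocytes and dendritic cells and is made largely by epithelial and stromal cells, was at 5.38, 5.61, 5.59, 5.61 and 5.12 in WT_chow and 6.63, 8.44, 7.54, 6.47 and 8.25 in KO_chow. No mouse overlapped, mice 2 and 5 were highest and mouse 4 lowest. Cxcl14 rose 4.01-fold (log2 2.00, SE 0.26, adjusted p = 1.44e-05), and in KO_UDCA it ran from 5.21 to 5.67 (median 5.54), 3.87-fold below KO_chow (adjusted p = 1.95e-05).

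Cxcl16, both a scavenger receptor for lipids and the ligand of Cxcr6, on T cells and NKT cells, was at 7.27, 7.43, 7.45, 7.46 and 7.12 in WT_chow and 8.37, 8.96, 8.40, 8.17 and 8.66 in KO_chow. All 5 knockout mice were clearly higher. The rise was 2.25-fold (log2 1.17, SE 0.14, adjusted p = 6.86e-06), and KO_UDCA, from 7.32 to 8.08 (median 7.49), was 1.96-fold below KO_chow with no overlap (adjusted p = 6.12e-05). Cx3cl1, or fractalkine, a membrane-bound ligand on endothelium and epithelium, was at 5.16, 4.69, 4.75, 5.07 and 4.97 in WT_chow and 5.72, 5.85, 5.81, 5.43 and 6.11 in KO_chow. It rose 1.81-fold (log2 0.86, SE 0.12, adjusted p = 3.51e-05), without overlap, and in KO_UDCA, from 4.88 to 5.33 (median 5.02), it was 1.66-fold lower again (adjusted p = 0.000196).

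**Figure D2:**
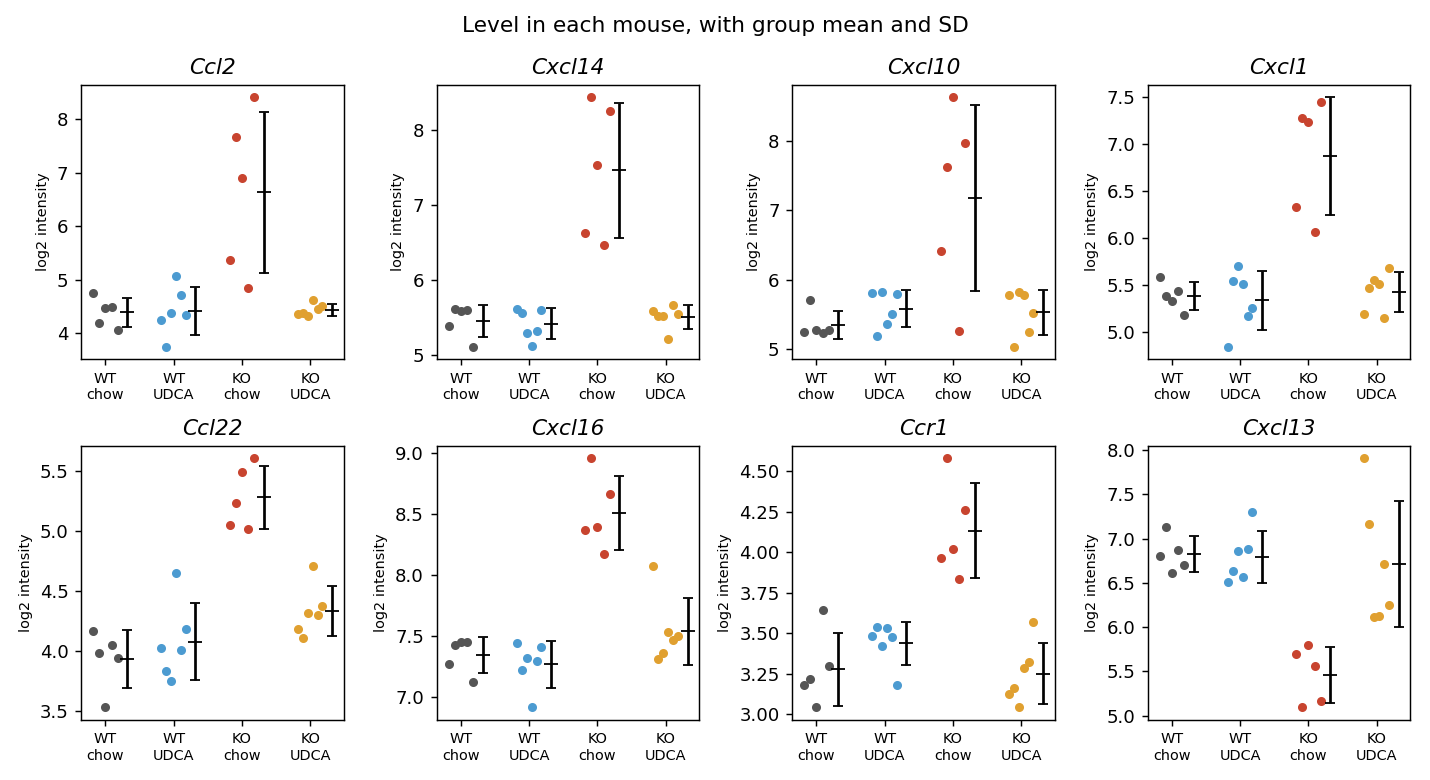
Log2 intensity in each mouse for 8 of the called genes, by group, with 1 point a mouse and the group mean and SD beside them. The KO_chow points of Ccl2, Cxcl14 and Cxcl10 spread widely, those of Ccl22 lie close together, and those of Cxcl13 lie below every WT_chow point.

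Among the 9 signalling CC receptors, Ccr1 and Ccr3 rose. Ccr1, a receptor of Ccl3, Ccl5, Ccl6 and Ccl9 on monocytes and neutrophils, was below the median of every array, at 3.18, 3.21, 3.05, 3.65 and 3.30 in WT_chow and 3.97, 4.58, 4.02, 3.84 and 4.26 in KO_chow. All KO_chow mice exceeded all wild-type mice on chow. The table holds no background for such dim genes (Ccl17, Cxcl5, Ccr1 and Ccr3), so their log2 differences are given without a fold. Ccl2, Ccl3, Ccl22 and Cxcr2 were also below the array median in all 5 WT_chow mice, so their folds carry the same limit. Ccr1 rose by the test (log2 0.86, SE 0.13, adjusted p = 9.72e-05), and KO_UDCA, from 3.04 to 3.57 (median 3.22), lay wholly below KO_chow (log2 -0.88, adjusted p = 6.09e-05).

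Ccr3, the eosinophil receptor and a neighbour of Ccr1, was below the array median everywhere, at 2.71, 2.61, 2.76, 2.85 and 3.14 in WT_chow and 2.79, 3.63, 3.71, 3.35 and 3.60 in KO_chow. Mouse 1 of KO_chow was within the wild type. Ccr3 rose by the test (log2 0.60, SE 0.16, adjusted p = 0.0132), and without mice 2 and 5 together it was not called (adjusted p = 0.184). KO_UDCA, from 2.81 to 3.26 (median 3.06), was not called against KO_chow (log2 -0.36, adjusted p = 0.139). At most 1 of the 6 eosinophil and mast cell markers lay above the array median in any array, and 0 of them were called on chow by limma (1 at an unadjusted p below 0.05).

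Ccr7, which takes T cells and dendritic cells to lymph nodes, was not called on chow (log2 0.32, adjusted p = 0.149). It was at 5.36, 5.83, 5.48, 5.35 and 5.28 in KO_chow and from 4.50 to 5.24 (median 4.96) in KO_UDCA. These groups did not overlap and the log2 change was -0.52 (SE 0.14, adjusted p = 0.0155), which was not called without KO_chow mouse 2 (log2 -0.42, adjusted p = 0.0654).

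Of the 7 CXC and XC receptors, Cxcr2 and Cxcr4 rose. Cxcr4, the receptor of Cxcl12, carried by most leukocytes, was at 5.11, 5.43, 5.22, 5.40 and 5.16 in WT_chow and 6.05, 6.45, 6.32, 5.52 and 6.10 in KO_chow. Every knockout mouse was higher, mouse 4 by the least. Cxcr4 rose 1.77-fold (log2 0.83, SE 0.14, adjusted p = 0.000321), and KO_UDCA, from 4.99 to 5.69 (median 5.38), was lower than KO_chow (log2 -0.72, adjusted p = 0.00103) with overlap at mouse 4.

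Cxcr2, the neutrophil receptor of Cxcl1, was at 4.15, 4.38, 4.45, 4.05 and 4.50 in WT_chow and 4.30, 5.21, 5.15, 4.50 and 4.98 in KO_chow. Mice 2, 3 and 5 lay above the wild type and mouse 1 within it. The difference was 1.44-fold (log2 0.53, SE 0.17, adjusted p = 0.0354) but it was lost without any 1 of KO_chow mice 2, 3 and 5 or WT_chow mice 1, 2 and 4, with adjusted p from 0.0517 to 0.124, and without mice 2 and 5 together (0.353). In KO_UDCA it ran from 4.10 to 4.86 (median 4.42) and was not called against KO_chow (log2 -0.40, adjusted p = 0.118). The summed intensity of 9 neutrophil markers was 159.2, 258.7, 215.6, 146.7 and 224.3 in KO_chow mice 1 to 5 and 128.4 to 140.6 in WT_chow. Mice 2, 3 and 5 were the highest and mice 1 and 4 the lowest by both measures, and the part of neutrophil number in the Cxcr2 level was not tested.

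Another 4 receptors, each with a ligand that rose or fell, were not called on chow. Cxcr3, the receptor of Cxcl10 on activated T cells, had a log2 change of -0.13, and Cxcr6, the receptor of Cxcl16, -0.10. Ccr4, the receptor of Ccl17 and Ccl22, had a change of -0.14 and Cxcr5, the receptor of Cxcl13, -0.01. The summed intensity of 11 T and NK cell markers overlapped between groups, 279.7 to 341.6 in WT_chow and 288.9 to 322.2 in KO_chow.

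Ackr2, an atypical receptor that takes up inflammatory CC chemokines, was the second member that fell. It was at 5.78, 5.89, 5.72, 6.07 and 6.03 in WT_chow and 5.54, 5.37, 5.56, 5.47 and 5.55 in KO_chow. No wild-type mouse overlapped the knockout mice on chow, and these lay within a narrow range. Ackr2 was 1.32-fold lower (log2 -0.40, SE 0.11, adjusted p = 0.0116). Without KO_chow mice 2 and 5 together the log2 change was similar at -0.38, but it was not called with fewer arrays (adjusted p = 0.0903). In KO_UDCA, from 5.41 to 5.83 (median 5.62), it was not called against KO_chow (log2 0.15, adjusted p = 0.418). Ackr1, Ackr3 and Ackr4 were not called, with log2 changes on chow of 0.19, 0.04 and -0.30.

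Ligands were set beside a receptor that each binds in 21 pairs, written with these values known. The list is not complete (Ccl6 and Ccl9, which also bind Ccr1, are not in it), so its counts describe these pairs alone. Both partners rose on chow in 4 pairs: Ccl3 with Ccr1, Ccl5 with Ccr1, Cxcl1 with Cxcr2, and Cx3cl1 with Cx3cr1. The ligand alone rose in 4 (Ccl17 and Ccl22 with Ccr4, Cxcl10 with Cxcr3, Cxcl16 with Cxcr6) and the receptor alone in 5, while 7 pairs had neither called. Cx3cr1, the receptor of Cx3cl1 on monocytes and macrophages, rose by log2 0.74 on chow (adjusted p = 1.25e-05). Cxcl13 fell while its receptor Cxcr5 had a log2 change of -0.01.

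**Figure D3:**
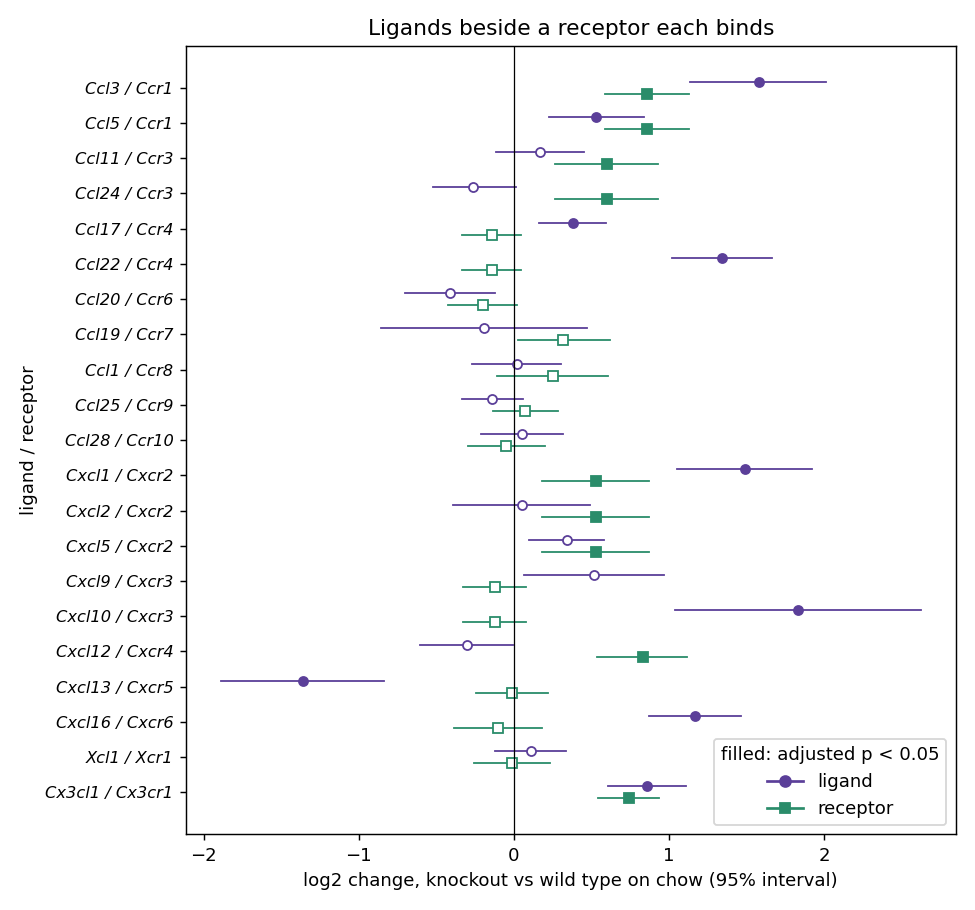
Log2 change in KO_chow vs WT_chow with its 95% interval for the ligand (circle) and the receptor (square) of 21 pairs with 15 receptors, filled where called. In 4 pairs both partners were called higher, whereas Cxcl10, Cxcl16, Ccl17 and Ccl22 rose beside receptors with log2 changes near 0.

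By position in assembly GRCm38.p6, with starts less than 1000000 bases apart, all 3 of Ccl22, Cx3cl1 and Ccl17 on chromosome 8 rose. In the CC cluster of chromosome 11, 3 of Ccl5, Ccl9, Ccl6, Ccl3 and Ccl4 rose, and 2 of Ccl2, Ccl7, Ccl11, Ccl12, Ccl8 and Ccl1. On chromosome 5, 1 of Cxcl5, Cxcl3, Cxcl15, Cxcl1 and Cxcl2 and 1 of Cxcl9, Cxcl10 and Cxcl11 rose, and neither Ccl26 nor Ccl24. Among receptors, 2 of Ccr9, Cxcr6, Xcr1, Ccr1, Ccr1l1 and Ccr3 on chromosome 9 rose, and 1 of Cxcr2 and Cxcr1 on chromosome 1. The share over all 54 genes was 29.6%, and over all genes 7.69%. The clusters are small, and grouping of the calls by position was not tested. Similar neighbours such as Ccr1 and Ccr3 can share probe sequence, and how the arrays separate them was not tested.

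The 5 KO_chow mice took a recurring order over the 16 risen genes. Mouse 4 had the lowest level of the 5 in 12 of them, mouse 1 in 3 and mouse 5 in 1. Mice 1 and 4 were the 2 lowest in 14 of the 16. The highest level was in mouse 2 for 6 genes, mouse 5 for 5, mouse 3 for 4 and mouse 1 for 1. Their median difference from the WT_chow mean was 0.79, 1.32, 1.06, 0.52 and 1.30 log2 units in mice 1 to 5. Mice 2, 3 and 5 exceeded the highest WT_chow mouse in all 16 genes and mice 1 and 4 in 13 each. The 16 genes were called on these same arrays, so levels above WT_chow follow largely from that choice. Genes of the same mouse are also not independent of each other, so these counts only describe the 5 mice. The summed intensity of 8 monocyte-derived macrophage markers, of which all rose on chow, was 1030, 3910, 1509, 1059 and 2794 in the same mice, and the part of macrophage number in the chemokine levels was not tested.

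**Figure D4:**
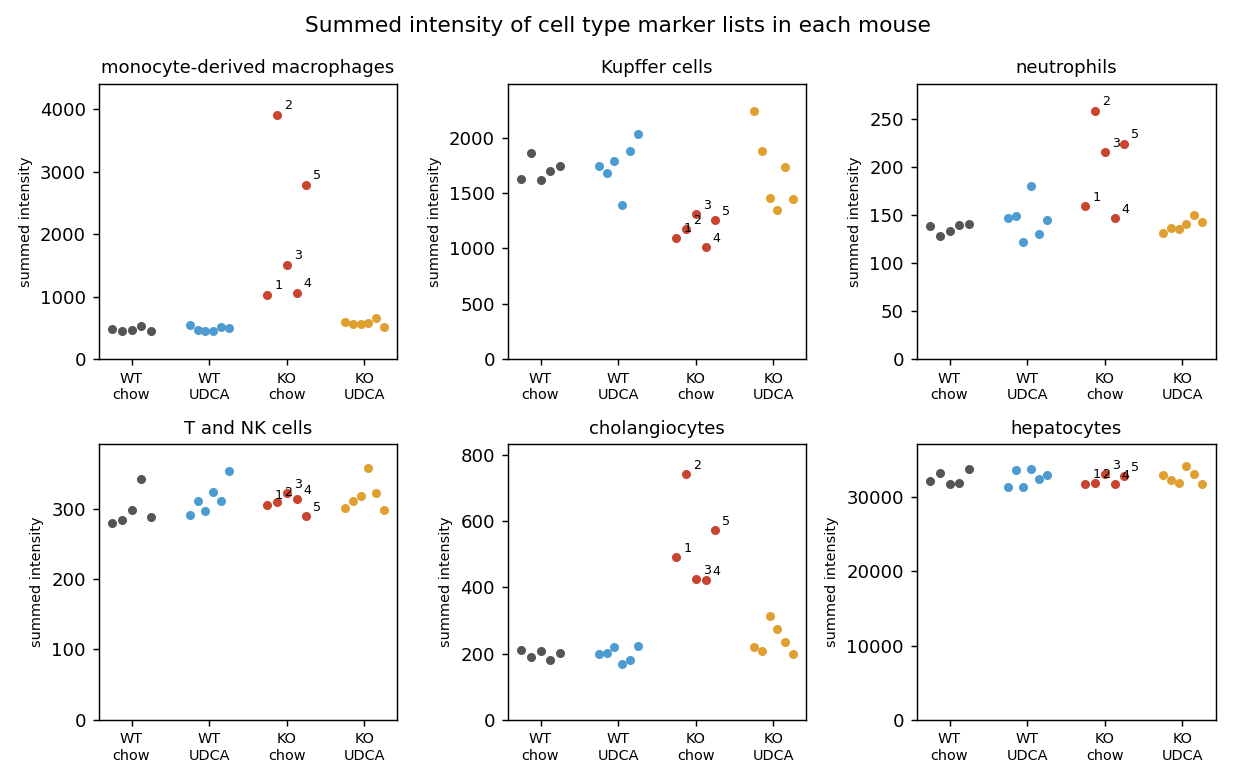
Summed intensity of marker genes for 6 cell types in each mouse, by group, with the KO_chow mice numbered. The KO_chow macrophage sums of 1030 to 3910 lie above the 447.4 to 533.4 of WT_chow, those of Kupffer cells below, and those of T and NK cells overlap.

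Marker genes of other cell types also changed. Over all genes, 7.69% rose on chow and 6.03% fell, and in a short list 1 or 2 called markers cannot be told from these shares. Of 8 Kupffer cell markers 5 fell on chow, with summed intensities of 1615 to 1863 in WT_chow and 1011 to 1310 in KO_chow. All 6 measured cholangiocyte markers rose, from summed intensities of 180.3 to 210 to 420.5 to 740.9, and 6 of 8 markers of stellate cells and fibroblasts rose. Of 9 neutrophil markers 5 rose, of 7 dendritic cell markers 1, of 6 sinusoidal endothelial markers 1 (with 1 that fell), of 11 T and NK cell markers 2, and of 4 B cell markers none (1 at an unadjusted p below 0.05). In the knockout with UDCA, 8 of 8 macrophage, 6 of 6 cholangiocyte, 5 of 9 neutrophil and 5 of 8 stellate cell and fibroblast markers were lower than in KO_chow. Of the others, 5 Kupffer cell, 1 T and NK cell and 1 sinusoidal marker were higher. The shares over all genes were 6.22% lower and 5.03% higher. The contribution of each to the chemokine levels was not tested.

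Genes around the chemokine pathway included many that rose on chow and none that fell, among the lists measured. Over all genes 7.69% rose and 6.03% fell, and these lists were chosen with earlier results of these data known. A list of cytokines, transcription factors and NF-kappaB components and regulators had 24 measured genes, of which 13 rose on chow and none fell. Among them were Nfkb2 (log2 1.15, adjusted p = 7.92e-05), Tnfaip3 (0.94, adjusted p = 0.000342), Il1b (0.91, adjusted p = 0.0142) and Tgfb1 (0.82, adjusted p = 0.00329). Of 25 signalling genes downstream of the receptors 12 rose and none fell, with Elmo1 at 1.85-fold and Rgs1 at 1.65-fold. Of 10 other chemoattractant genes 4 rose, led by C5ar1, the receptor of complement C5a (log2 0.96, adjusted p = 0.000602). With UDCA in the knockout, 12 genes of the cytokine and NF-kappaB list, 11 of the signalling genes and 2 of the other chemoattractants were lower and none higher. Of all genes, 6.22% were lower and 5.03% higher in that comparison.

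In KO_UDCA against KO_chow, 15 of the 54 genes were lower (background 6.22%) and 1 was higher, Cxcl13 (background 5.03%). The 15 were 12 ligands and 3 receptors, and levels did not overlap for 10 genes that were lower, against 3.27% of all genes, and 1 that was higher, against 2.62%. The median log2 change was -0.10, where that over all genes was 0.03. This comparison and that of KO_chow with WT_chow share the KO_chow arrays, so their calls are not independent. Cxcl2, Cxcl5 and Ccr7 were called here and not on chow, and Ccl5, Ccl7, Ccr3, Cxcr2 and Ackr2 on chow and not here. Of these, Ccl7 was called lower here without KO_chow mouse 4 (log2 -0.75, adjusted p = 0.00403) or mouse 1 (0.0392), Ccr3 without mouse 1 (0.0128) and Cxcr2 without mouse 1 (0.0238). Without KO_chow mice 2 and 5 together, the calls of Ccl6 (log2 -0.419, adjusted p = 0.315), Cxcl2 (log2 -0.675, adjusted p = 0.174), Cxcl5 (log2 -0.243, adjusted p = 0.258) and Ccr7 (log2 -0.455, adjusted p = 0.129) were lost. Those of Cxcl10 and Cxcl13 given above were lost too.

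Against WT_chow, KO_UDCA had 0 of 54 genes called by limma, with 7 at an unadjusted p below 0.05 and 0.025% of all genes called. Over the 18 genes called on chow, the log2 differences from WT_chow ran from -0.26 to 0.41, with 95% interval bounds from -0.80 to 0.94. The interval included 0 for 15 of the 18 and not for Ccl5 (0.37, interval 0.07 to 0.66), Ccl22 (0.40, 0.09 to 0.71) and Ackr2 (-0.26, -0.46 to -0.05). For Ccl2 the difference of 0.05 had an interval of -0.80 to 0.90, an interval that uses the variance shared by all groups, while the SD of Ccl2 was 0.27 in WT_chow, 0.11 in KO_UDCA and 1.51 in KO_chow. Cxcl2, not one of the 18, had a log2 difference from WT_chow of -0.61 (interval -1.03 to -0.19, adjusted p = 0.659).

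**Figure D5:**
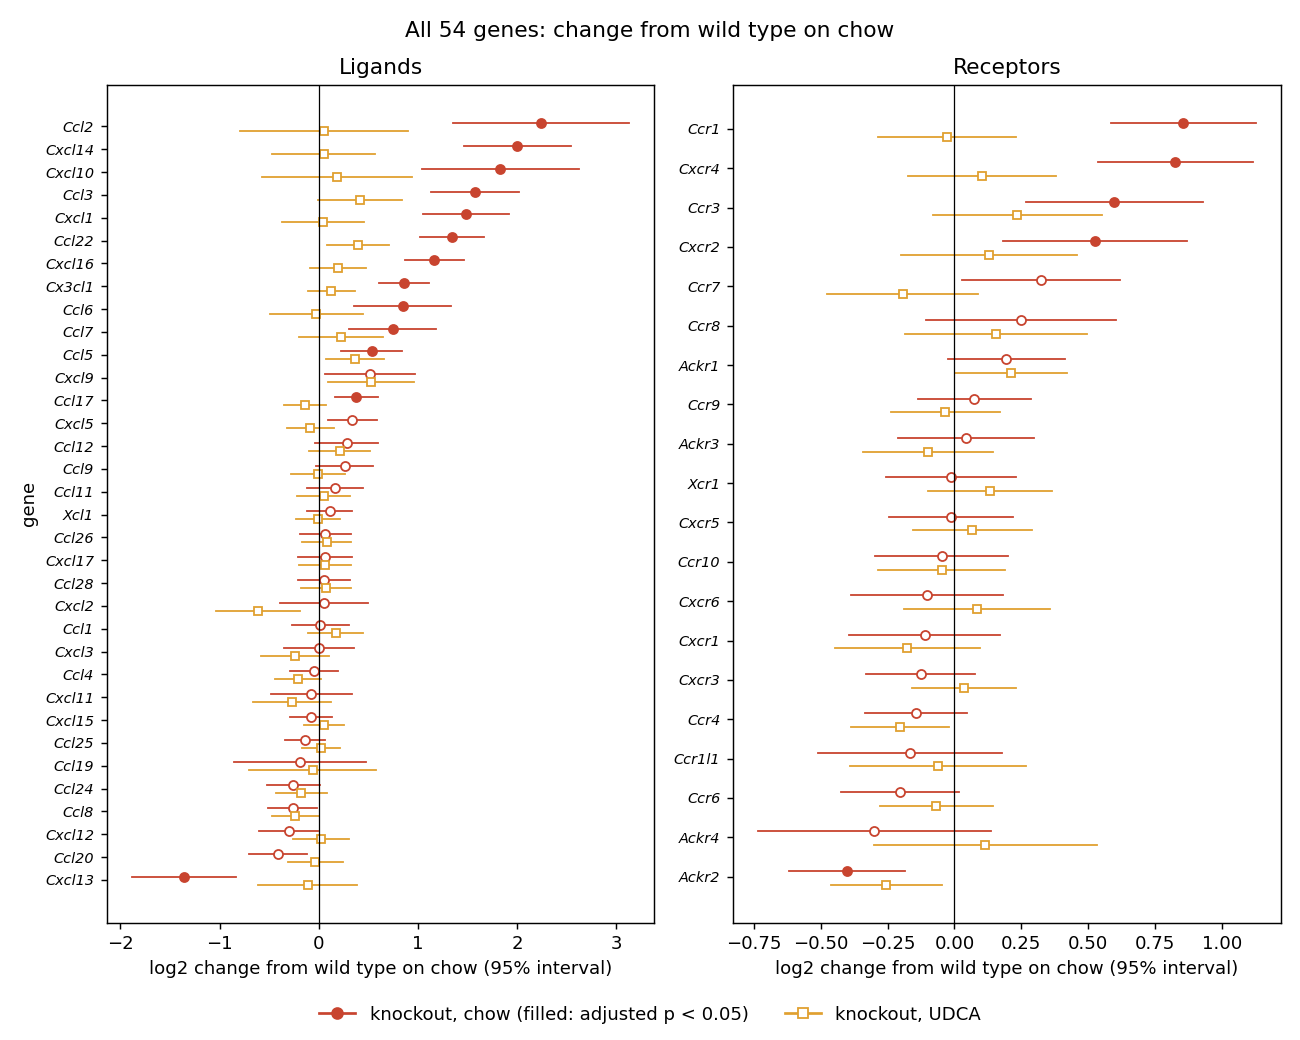
Log2 difference from WT_chow with its 95% interval for each of the 54 genes, ligands at left and receptors at right, for KO_chow (circles, filled where called) and KO_UDCA (squares). Circles of 16 genes are filled to the right of 0 and of 2, Cxcl13 and Ackr2, to the left, while no square is filled.

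Within the UDCA diet, KO_UDCA against WT_UDCA had 0 of 54 genes called by limma (0.0167% of all genes called), with 4 at an unadjusted p below 0.05, log2 differences from -0.33 to 0.41 and a smallest adjusted p of 0.831. In the wild type, UDCA feeding called 0 of 54 genes and 0% of all genes, with 4 members at an unadjusted p below 0.05 and log2 differences from -0.29 to 0.53. WT_UDCA levels ran from 3.97 to 4.70 (median 4.20) for Ccl3 and from 3.75 to 4.65 (median 4.02) for Ccl22. They ran from 5.20 to 5.82 (median 5.66) for Cxcl10, from 5.12 to 5.61 (median 5.44) for Cxcl14 and from 6.92 to 7.45 (median 7.31) for Cxcl16. Ccr1 ran from 3.18 to 3.54 (median 3.48) and Cxcl13 from 6.51 to 7.30 (median 6.75). For each of these 7 genes the WT_UDCA range overlapped that of WT_chow.

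The difference in UDCA response between the genotypes was tested as an interaction. Of the 54 genes 10 had a negative interaction (background 2.07%), meaning a log2 change with UDCA that was more negative in the knockout than in the wild type, and 1, Cxcl13, a positive one (background 0.6%). For Ccl2 the changes were -2.19 in the knockout and 0.03 in the wild type. The 10 were Ccl2, Ccl3, Ccl17, Ccl22, Cxcl1, Cxcl14, Cxcl16, Cx3cl1, Ccr1 and Cxcr4. For Ccl22, Cxcl1, Cxcl14, Cxcl16, Ccr1 and Cxcr4 the call held in all 22 fits that leave out 1 array. For Ccl2 it was lost in 18 of the 22 (adjusted p from 0.055 to 0.097), for Cxcl13 in 14, Cx3cl1 in 13, Ccl17 in 10 and Ccl3 in 9. The count of 10 became 6 without KO_UDCA mouse 2, KO_chow mouse 2, KO_chow mouse 5 or WT_chow mouse 3, and 3 without KO_chow mice 2 and 5 together. The interaction value of Cxcl10 was -1.88 and missed the threshold (adjusted p = 0.0513). It was called with the filter on dim genes (0.0311), a pseudocount of 16 (0.0495) and a variance per group (0.0322), and without KO_chow mouse 1 (0.0262) or mouse 4 (0.000672).

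The 33 genes called in no comparison were 19 ligands and 14 receptors, of which 17 lay below the array median in all arrays. On chow their log2 changes ran from -0.41 to 0.52. Of the 36 genes not called on chow, 31 had a change of less than 0.3 log2 units in size.

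Within groups, the median SD of the 54 genes was 0.17 log2 units in WT_chow, 0.23 in WT_UDCA, 0.24 in KO_chow and 0.20 in KO_UDCA. For the 16 genes that rose on chow, which were called by their KO_chow level, it was 0.20, 0.26, 0.39 and 0.20 in the same order. Over all genes the median SD was 0.19 in KO_chow and 0.17 in WT_chow. A variance shared by the groups can understate the error of KO_chow for the most variable members such as Ccl2 (SD 1.51) and Cxcl10 (SD 1.34).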

How the data were processed

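Per the labels, the authors deposited one intensity per probe set on the unlogged scale, summarised with a probe-level model. Of tools, RMA is named in the submitters' processing notes, with no version number. Intensities from 1.66 to 10284 were taken to log2 without a pseudocount or filter on dim genes. Of 24973 rows, 24015 had 1 symbol and 958 none, and for 4 repeated symbols the brighter row was kept, which left 24011 genes. Symbols were checked against RefSeq GRCm38.p6 (23922 rows matched, 0 changed).

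Groups follow the labels, and replicate numbers follow the order of the records and pair nothing. The model, limma 3.58.1 run in R 4.3.3, had a mean for each group over the 22 arrays and was checked on simulated data. The simulation gave each gene the same SD in every group, so it does not cover genes more variable in KO_chow. P-values are two-sided and adjusted by Benjamini-Hochberg over all 24011 genes, with calls below 0.05. The number of arrays limits the precision.

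The genes described in full are those called in any of 6 comparisons, and the rest are summarised. For the lists beside them, up to 4 called genes are named by size of change. The members, role lists, pathway lists, marker lists and ligand and receptor pairs were chosen with earlier results of these data known. One receptor gene of the same name pattern is not reported here. Alternatives tried were quantile normalization, median centring, a filter on dim genes, a pseudocount of 16, fits to the compared groups only, a variance per group, a trended robust prior, runs of sample numbers as a covariate, and leaving out each array.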

Additional observations from a re-analysis of the deposited data

Results flagged for a closer look

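For 11 genes the change with UDCA differed between knockout and wild type by the interaction term of the limma fit (log2 difference of the 2 UDCA changes, n = 5, 6, 5 and 6 arrays, adjusted p below 0.05). The ligands were Ccl2 (-2.22, adjusted p = 0.042), Ccl3 (-1.16, adjusted p = 0.0315), Ccl17 (-0.57, adjusted p = 0.0327), Ccl22 (-1.09, adjusted p = 0.00635), Cxcl1 (-1.40, adjusted p = 0.00933), Cxcl14 (-1.91, adjusted p = 0.00453), Cxcl16 (-0.89, adjusted p = 0.014), Cx3cl1 (-0.65, adjusted p = 0.0342) and Cxcl13 (1.28, adjusted p = 0.0448). The receptors were Ccr1 (-1.04, adjusted p = 0.0021) and Cxcr4 (-0.84, adjusted p = 0.0181).

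In 4 of 84 sets of arrays tested, each 1 gene in 1 group, a single mouse lay far from the others, where chance gives about 1 in 20. Cxcl10 was at 5.71 in WT_chow mouse 2 and between 5.24 and 5.27 in the other mice of the group. Cxcl16 was at 8.08 in KO_UDCA mouse 1 and between 7.32 and 7.53 in the others. Cxcl14 was at 5.21 in KO_UDCA mouse 4 and between 5.52 and 5.67 in the others. Ccr1 was at 3.18 in WT_UDCA mouse 6 and between 3.42 and 3.54 in the others.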

How the results depend on the processing

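Of 982 repeats of the called changes under other settings, 859 kept direction and side of the threshold, 123 lost the call and 0 reversed. Without KO_chow mice 2 and 5 together, an alternative added with earlier results known, the genes higher on chow fell from 16 to 10 and those lower from 2 to 1. In the same fit the 1 gene higher in KO_UDCA against KO_chow became 0, and the interaction had 0 higher and 3 lower. Shares over all genes are given for the main fit only, so the counts of the alternatives have no background beside them. The 1 gene higher in KO_UDCA against KO_chow became 2 with the filter on dim genes (12912 genes and 28 of the 54 tested) and 2 with median centring. The 1 interaction call higher, Cxcl13, became 0 with a pseudocount of 16, with runs of sample numbers as a covariate and with a trended robust prior. Leaving out each array in turn gave 13 to 17 higher and 2 to 3 lower on chow, 1 to 2 higher and 11 to 18 lower in KO_UDCA against KO_chow, and 0 to 1 higher and 6 to 13 lower in the interaction, with 0 in the other 3 comparisons. Fits to the 2 compared groups alone lost Ccl6 (adjusted p = 0.0787), Ccl7 (0.0995) and Cxcr2 (0.0845) on chow, and Ccl6 (0.0621), Cxcl2 (0.0667) and Cxcl5 (0.0566) in KO_UDCA against KO_chow. The cause of these shifts was not tested, apart from fewer arrays or genes where these were left out. No paired analysis was possible because the titles number the mice once through the series, so that the groups share no replicate number. For genes below the array median the table gives no signal over background.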
